A study of Mus musculus with 16 samples.

Results

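Hippocampal gene expression was compared between SAM/P-8 mice and SAM/R-1 mice after both had eaten a diet with coral calcium hydride (CCH). The comparison takes the 4 arrays titled SAM/P-8 with CCH and the 4 titled SAM/R-1 with CCH, which is 8 of the 16 arrays in the study. The senescence-accelerated mouse (SAM) lines were selected from a common AKR/J pool, per the labels, and SAM/P-8 is a line prone to early senescence whereas SAM/R-1 resists it. All mice were male and labelled as 8 weeks old at assignment, and all ate CE-2 rodent chow for 8 weeks, in these 8 arrays with 0.1% CCH added. The remaining 8 arrays, 4 of each strain on CE-2 without CCH, serve here as the measure of the strain difference on the control diet. Both strains in every comparison carry the AKR/J background, and both groups of the main comparison received CCH, so a difference between them describes the strains on that diet and not an effect of CCH.

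Total RNA was hybridised to one-colour Agilent arrays. Each level below is the log2 signal of an array feature, that is of 1 probe sequence, minus the 75th percentile of its array, so that 0 marks a bright feature and values near -8 lie at the dim end. A difference is the mean of SAM/P-8 minus the mean of SAM/R-1 on that scale, with its standard error (SE) from limma over 4 and 4 arrays unless another n is given. A feature was called different where limma's p, adjusted by Benjamini-Hochberg over all features tested, was below 0.05. Between 70.0% and 71.8% of the spots were well above background on the SAM/P-8 arrays, and between 70.7% and 76.8% on the SAM/R-1 arrays. Whether the 4 arrays of a group stand for 4 animals is not given in the labels, so the p-values measure the spread between these samples, which may be technical. The arrays of each group shared 1 slide with no other group, so neither strain nor diet can be told apart from slide in any value below. In bulk tissue, fewer cells of a type and less RNA per cell cannot be told apart either.

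The labelled tissue was checked against marker genes before the strains were compared. For dentate granule cells 13 markers passed the background filter, for CA1 pyramidal cells 10, and for CA2 and CA3 cells 11, so markers of hippocampus were measured. Passing the filter does not tell the tissue, since 15 of 15 cortical and subicular, 11 of 12 thalamic and 22 of 27 striatal markers also passed. SAM/P-8 replicate 4 stood apart through genes of the striatum, a forebrain region outside the hippocampus. The summed striatal score, the mean over 22 marker genes of each level minus that gene's mean over the other 7 arrays, was 0.29, -0.16, -0.20 and 3.43 in SAM/P-8 replicates 1 to 4. In SAM/R-1 it was 0.09, 0.16, -0.10 and -0.09. Replicate 4 was the highest of the 8 arrays for 22 of the 22 striatal genes, and the other 7 arrays overlapped. Penk, which encodes the opioid precursor proenkephalin of striatal neurons, stood at 7.12 on replicate 4 and between 2.33 and 2.79 on the other 7 arrays, which put replicate 4 22.6-fold above their mean. Rgs9, a regulator of G protein signalling enriched in striatum, stood at 3.84 there against -1.62 to -1.34 elsewhere, 40.2-fold above the mean of the other 7. Drd1, the D1 dopamine receptor, stood at 1.51 against -3.26 to -2.36, 19.2-fold above their mean. On the same array 9 of 10 CA1 markers were at their lowest of the 8 arrays. Of 13 dentate markers 8 were at their lowest and 2 at their highest. Of 11 CA2 and CA3 markers 6 were at their lowest and 3 at their highest, and their score of 0.22 was the highest of the 8 arrays. The score for pituitary and hypothalamic hormones reached 1.97, with 4 of 8 genes at their highest. Of all genes, 134 were more than 1 log2 unit above every other CCH array on replicate 4, against 1 to 14 on each other array. The array still correlated with the rest of its group at 0.987 to 0.990. Values without replicate 4 are therefore given below beside the counts and named calls that it changed.

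**Figure D1:**
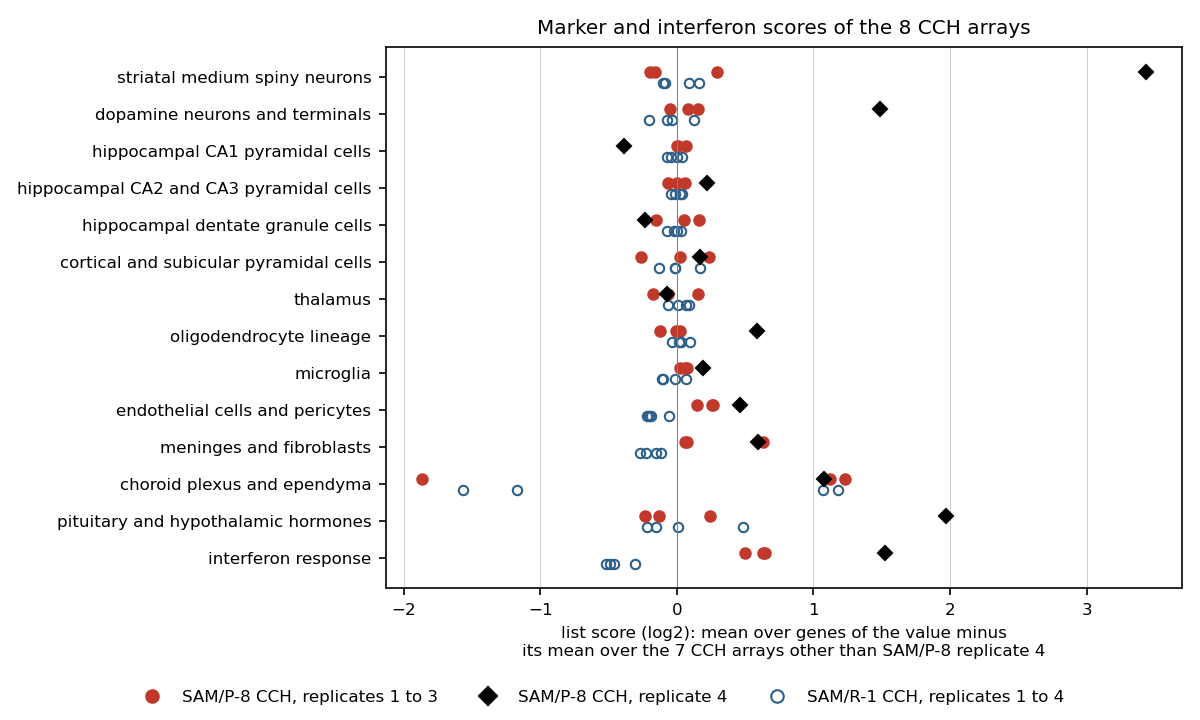
Scores of marker and gene lists on each of the 8 CCH arrays, in log2 units relative to the mean of the 7 arrays other than SAM/P-8 replicate 4, with 1 point per array, strains in different colours and replicate 4 marked. Replicate 4 lies at 3.43 for striatal neurons and at 1.52 for the interferon response, while all 4 SAM/P-8 arrays lie above all 4 SAM/R-1 arrays for the interferon response.

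Interferons are cytokines that cells release on viral infection and that signal through receptors coupled to the kinases Tyk2 and Jak1. These kinases activate transcription factors of the STAT family, which bind a short element in the promoters of interferon-stimulated genes, and the products of those genes sense viral RNA, block translation and degrade RNA. In the brain, microglia, endothelial cells and neurons all carry this machinery, and a low tonic level of it is known in the absence of infection. Nodal and the Lefty proteins form another well-studied pathway, in which Lefty1 and Lefty2 are secreted antagonists of the TGF-beta family ligand Nodal.

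Features well above background on every array of either CCH group numbered 28840. Of these, 3900 were called different between the strains, which is 13.5%. The called features divided into 1853 higher and 2047 lower in SAM/P-8, so 47.51% were higher, and that share was 36.16% when the median of each array was subtracted in place of the 75th percentile. Named genes numbered 13395, each represented by its brightest feature. Of these, 827 genes were higher in SAM/P-8 (6.17%) and 874 were lower (6.52%). Each count of called list members below is to be read against these shares. Most differences were small, since 1224 of the 1701 genes called differed by less than 1.5-fold. At least 2-fold differences were found for 219 genes, 151 of them higher in SAM/P-8 and 68 lower. Of the 219 genes, 170 rested on a single feature, and for such genes a sequence variant between the strains under the probe and a different level of RNA cannot be told apart. Without SAM/P-8 replicate 4, 726 genes were called higher (5.42%) and 690 lower (5.15%), and 1242 of the 1701 genes called with all 8 arrays remained. For 2766 genes, which is 20.6%, the 4 arrays of one strain did not overlap the 4 of the other.

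Tyk2, the kinase bound to the interferon alpha/beta receptor and to several interleukin receptors, showed the largest fitted difference among genes with a symbol, and also the largest bound of those described below. Its feature stood at 0.06, 0.15, 0.14 and -0.16 in SAM/P-8 replicates 1 to 4, and at -8.45, -8.80, -8.61 and -8.26 in SAM/R-1. The SAM/R-1 values were not well above background on any array. The fitted difference was 8.58 ± 0.20 (limma adjusted p = 4.72e-13), but for a group that is not well above background only a lower bound of the fold can be stated. That bound sets the SAM/P-8 mean against the lowest signal that was well above background on the SAM/R-1 arrays, and it made Tyk2 at least 94.8-fold higher. On the control diet the bound was at least 65.0-fold. Tyk2 was measured by 1 feature. Every fold written with "at least" below is a bound of this kind.

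The partners of Tyk2 differed little. Of 20 genes for interferon receptors and JAK-STAT signalling that were measured, 2 were higher, 1 was lower and 17 did not pass the test. The second gene that was higher was Stat6, the transcription factor of interleukin-4 signalling, at 0.47 ± 0.11 (limma adjusted p = 0.0119), where fitting the 8 CCH arrays alone gave an adjusted p of 0.0674. Pias1, an inhibitor of STAT signalling, was lower by -0.19, and its other feature gave 0.13. The kinase Jak1 differed by 0.04 and Jak2 by 0.13, and the receptor subunits Ifnar1 and Ifnar2 by 0.07 and 0.19, none of which passed the test. Stat2, a transcription factor of the pathway, gave 0.21 (adjusted p = 0.0811).

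Downstream of the receptor, interferon-stimulated genes had higher levels in SAM/P-8. Of 29 measured genes of the interferon response, 21 were called higher and 0 lower, against the 6.17% of all genes called higher, and their median difference was 0.96 where that of all genes was -0.02. The interferon score was 0.65, 0.50, 0.63 and 1.52 in SAM/P-8 replicates 1 to 4 and -0.31, -0.52, -0.46 and -0.49 in SAM/R-1, so every SAM/P-8 array lay above every SAM/R-1 array. Replicate 4, the array with striatal genes, was the highest of the 8 for 25 of the 29 genes. Without it 20 genes were called higher and the median was 0.72. Whether the striatal genes and the interferon genes of replicate 4 have a common source was not tested. The control-diet SAM/P-8 arrays, a group without the CCH array that held striatal genes, scored 0.91, 0.97, 0.88 and 0.56. The control SAM/R-1 arrays scored -0.39, -0.27, -0.57 and -0.43. With normexp background correction, which adds an offset of 50 to every signal and so shrinks differences between dim features, 5 of the 29 genes were called higher and the median was 0.42.

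Antiviral effectors had the largest differences of this group. Oas1a, which makes the oligoadenylate messenger that activates RNase L, stood at -3.72, -4.28, -3.81 and -2.67 in SAM/P-8 and at -7.18, -8.88, -8.61 and -8.17 in SAM/R-1. It was well above background on no SAM/R-1 array and was higher at least 7.47-fold (limma adjusted p = 2.2e-07), or at least 5.999-fold without replicate 4. Oas2, another member of the family, stood at -4.95, -5.68, -5.49 and -3.78 against -7.61, -7.53, -8.42 and -8.02. It was at least 2.92-fold higher with all arrays (limma adjusted p = 4.08e-05) and at least 2.22-fold higher without replicate 4. Members of the Oas family are alike in sequence, and how far their features share signal was not tested. Eif2ak2, the kinase PKR that halts translation on double-stranded RNA, was higher by 1.44 ± 0.12 (limma adjusted p = 5.8e-07).

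Usp18, the protease that removes Isg15 from proteins and restrains the interferon receptor, stood at -3.56, -3.90, -3.53 and -1.52 in SAM/P-8 and at -6.43, -6.71, -6.10 and -8.23 in SAM/R-1, where 2 arrays were well above background. It was higher by 3.74 ± 0.55 (limma adjusted p = 0.000303), and by 3.21 without replicate 4. Ifit1, which binds RNA that lacks the host cap, stood at -4.28, -4.76, -3.92 and -1.77 against -6.31, -6.78, -6.30 and -6.88. Its difference of 2.88 ± 0.55 (limma adjusted p = 0.00249) became 2.25 without replicate 4 (adjusted p = 0.00202). As with Usp18, 2 of 4 SAM/R-1 arrays were well above background for Ifit1, so the fitted differences of both genes rest in part on signals near background. For Usp18 and Ifit1 replicate 4 was the highest array. That their SAM/P-8 and SAM/R-1 arrays did not overlap was a condition of their choice.

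Transcription factors and smaller effectors followed. Irf7, the factor that amplifies the interferon response, was higher by 1.64 ± 0.27 (limma adjusted p = 0.000693), and Isg15, a ubiquitin-like modifier, by 1.85 ± 0.33 (limma adjusted p = 0.00153). Oasl2 was higher by 1.97, Iigp1, a GTPase of cell-autonomous defence, by 1.45, Parp14 by 1.36, Gbp3 by 1.32 and Rtp4 by 1.27. Ifih1, the sensor Mda5 for long double-stranded RNA, was higher by 0.83. Cxcl10, a chemokine induced by interferon, was higher by 1.74 with all arrays (limma adjusted p = 0.0476), and without replicate 4 its difference of 1.05 was not called. Bst2 differed by 1.10 and Rsad2 by 0.49, and neither passed the test.

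Ifi27l2a, which is outside the list but is a known interferon-inducible gene, was higher by 3.00 ± 0.27 (limma adjusted p = 1.84e-06), a 7.99-fold difference. Trim12a and Trim30d belong to a cluster of TRIM genes related to the antiviral factor TRIM5. Trim12a stood at -0.77, -0.93, -0.94 and -0.57 in SAM/P-8 and at -8.85, -8.60, -8.39 and -8.03 in SAM/R-1, where it was not well above background. It was at least 52.6-fold higher (limma adjusted p = 6.53e-14), and its other feature differed by 3.68. Trim30d was at least 3.01-fold higher. Between related TRIM genes, too, signal may be shared and this was not tested.

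The promoters of 4 of these genes are printed because the known interferon-stimulated response element can be looked for in them. Oas1a, Isg15 and Ifit1 belong to the list that moved together, and Trim12a is outside it. Each line holds 250 bases before to 50 after the RefSeq gene start in the mouse build GRCm38.p6, read 5′ to 3′ on the strand of the gene. Capitals mark the core of that element, taken as GAAA, any 2 bases and GAAA again, searched on both strands, and overlapping matches run together. Oas1a lies at chr5:120907476-120907775 on the minus strand, Isg15 at chr4:156200769-156201068 on the minus strand, Ifit1 at chr19:34640639-34640938 on the plus strand and Trim12a at chr7:104315446-104315745 on the minus strand.
Oas1a: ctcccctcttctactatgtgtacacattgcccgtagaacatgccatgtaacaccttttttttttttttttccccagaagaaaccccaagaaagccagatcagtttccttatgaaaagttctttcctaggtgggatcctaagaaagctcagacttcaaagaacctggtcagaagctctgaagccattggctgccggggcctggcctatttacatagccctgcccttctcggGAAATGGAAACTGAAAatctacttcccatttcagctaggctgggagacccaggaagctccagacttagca
Isg15: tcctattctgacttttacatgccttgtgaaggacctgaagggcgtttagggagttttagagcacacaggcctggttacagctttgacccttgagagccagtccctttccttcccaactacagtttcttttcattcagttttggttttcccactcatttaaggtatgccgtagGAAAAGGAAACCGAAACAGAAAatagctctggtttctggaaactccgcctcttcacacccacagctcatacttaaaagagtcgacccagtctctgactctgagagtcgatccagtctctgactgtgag
Ifit1: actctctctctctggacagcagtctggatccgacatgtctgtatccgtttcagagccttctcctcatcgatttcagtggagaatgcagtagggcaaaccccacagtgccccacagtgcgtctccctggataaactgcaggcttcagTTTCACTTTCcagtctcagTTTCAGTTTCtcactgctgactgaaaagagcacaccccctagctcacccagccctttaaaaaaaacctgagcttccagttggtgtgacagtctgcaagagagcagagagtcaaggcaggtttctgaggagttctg
Trim12a: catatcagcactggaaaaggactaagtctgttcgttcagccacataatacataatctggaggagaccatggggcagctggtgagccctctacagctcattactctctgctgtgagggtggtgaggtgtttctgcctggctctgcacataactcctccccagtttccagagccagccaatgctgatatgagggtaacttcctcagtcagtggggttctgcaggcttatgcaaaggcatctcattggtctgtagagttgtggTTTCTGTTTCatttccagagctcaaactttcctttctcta
In the Oas1a promoter 2 matches overlapped, whose leftmost bases lie at -20 and -14 from the gene start. The Isg15 promoter held 3 overlapping matches, at -78, -72 and -66. The 2 matches of Ifit1, at -104 and -85, and the single match of Trim12a, at 10 and so after the gene start, lie on the reverse strand. All 4 printed promoters hold the motif, whereas those of Irf7 and Oasl2, list members also called higher, held 0 matches.

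Of the measured interferon-response genes, 22 had a promoter in the RefSeq table and 16 of these held the motif, which is 72.727%. Among the members called higher it was 11 of 16. The list was made of known interferon-stimulated genes, whose promoters are known for this element. A high share was therefore set by the choice of the list and does not bear on the strain difference. The motif was found in 3.993% of all 27025 promoters and in 3.697% of the 10685 promoters of tested genes. Of the 15 genes with the largest increases, 10 had a promoter in the table and 5 of those held the motif. The increases include members of the same list, Oas1a and Ifit1 among them, so this share is not separate from that of the list. Of the 15 genes with the largest decreases, 9 had a promoter and 0 held the motif. These matches describe the reference sequence of another mouse strain and not the alleles of SAM/P-8 or SAM/R-1.

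Chemokines included a gene with one of the largest increases. Ccl19, a ligand of the receptor Ccr7 that guides lymphocytes and dendritic cells, stood at 4.92, 5.12, 5.21 and 5.02 in SAM/P-8 and at -0.81, -0.69, -1.16 and -1.29 in SAM/R-1. The groups were far apart on every array, a 66.5-fold difference (6.05 ± 0.22, limma adjusted p = 4.78e-11), and the other feature of Ccl19 gave 6.10. Of 19 measured chemokines and chemokine receptors, 7 were called higher (36.8%) and 1 lower (5.26%), against 6.17% and 6.52% of all genes. Without replicate 4 these counts were 5 and 1. Leaving out SAM/P-8 replicate 2 gave 4 called higher, and leaving out SAM/R-1 replicate 2 gave 2 called lower. Ccl27a, a skin-homing chemokine, was higher by 1.03 ± 0.07 (limma adjusted p = 1.26e-07). Ccl28 was higher by 1.39 and Ccl12 by 1.16. After normexp correction these 2 genes differed by 0.07 and 0.04, and 2 members of the list were called higher. Ccl17, a ligand of Ccr4, was the member that was lower, by -0.89 ± 0.09 (limma adjusted p = 6.24e-06).

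Of 15 measured genes for antigen presentation by MHC class I, 8 were higher in SAM/P-8 (53.3%, against 6.17% of all genes) and 0 were lower. Their median was 0.32. Leaving out replicate 4 gave 7 higher. Immunoproteasome subunits were among them, with Psmb8 at 0.77 ± 0.10 (limma adjusted p = 7.7e-05) and Psmb9 at 0.67 ± 0.06 (limma adjusted p = 2.12e-06). The non-classical molecule H2-T23 was higher by 0.78, the light chain B2m by 0.32 and the peptide transporter subunit Tap1 by 0.40. The feature that represents H2-D1 gave 0.65 and its other feature -0.01, and the classical molecule H2-K1 differed by -0.40 without passing the test. Class I genes are polymorphic and alike in sequence, so part of a feature's signal may come from a relative or follow an allele, which was not tested. Of 6 measured MHC class II genes, 1 was higher and 2 were lower. H2-Ob, a modulator of peptide loading, was at least 1.44-fold lower (limma adjusted p = 4.68e-09), and H2-DMa was lower by -0.32. H2-Oa was higher by 1.01 with an adjusted p of 0.044 and was not called without any 1 of 7 of the 8 arrays, namely all except SAM/P-8 replicate 1. Of 14 complement genes, 2 were higher and 1 was lower. C4b was lower by -0.51 (limma adjusted p = 0.0106), and C1qc, a chain of the first complement component, was higher by 0.22. The count of genes called higher was 0 without SAM/P-8 replicate 1, 3 or 4 or SAM/R-1 replicate 1, 2 or 4, and 1 without SAM/R-1 replicate 3.

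**Figure D2:**
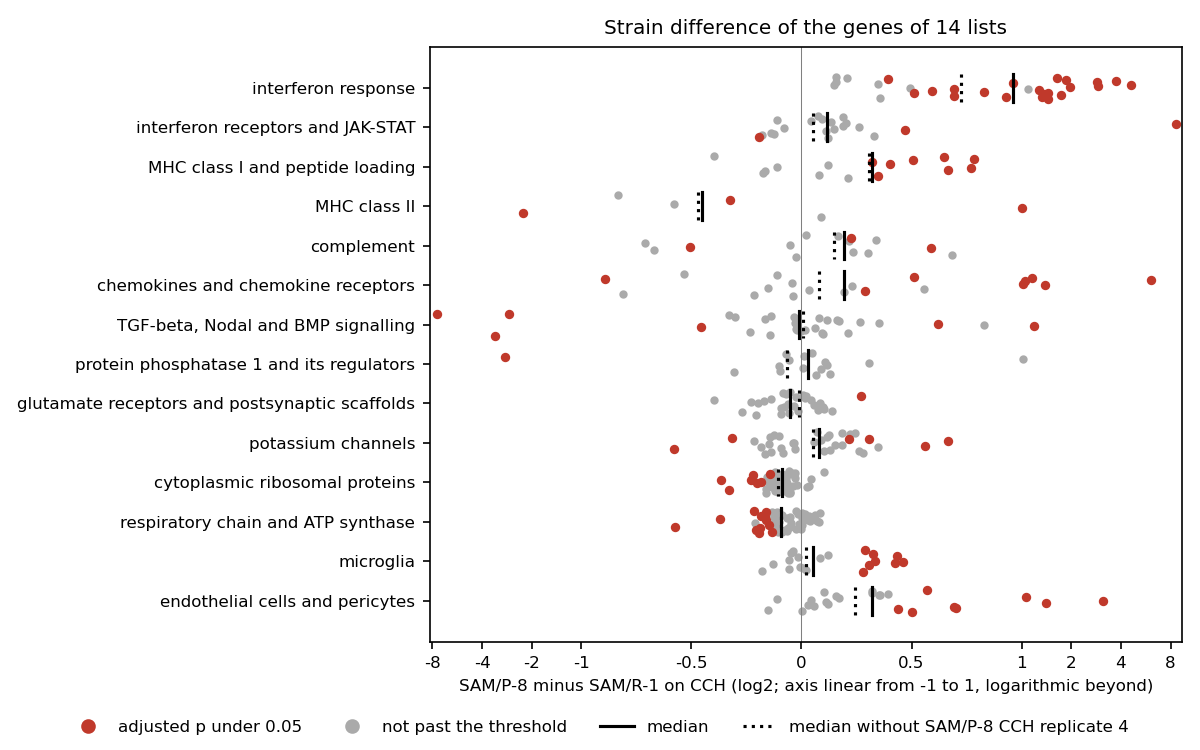
Differences of the measured members of the gene lists on the CCH diet, in log2 units, SAM/P-8 minus SAM/R-1, on an axis that is linear from -1 to 1 and logarithmic beyond, with 1 point per gene, coloured where limma's adjusted p was below 0.05, and the median with (solid) and without (dotted) SAM/P-8 replicate 4. The interferon response has 21 coloured points to the right of 0 and 0 to the left, and MHC class I has 8 and 0.

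**Figure D3:**
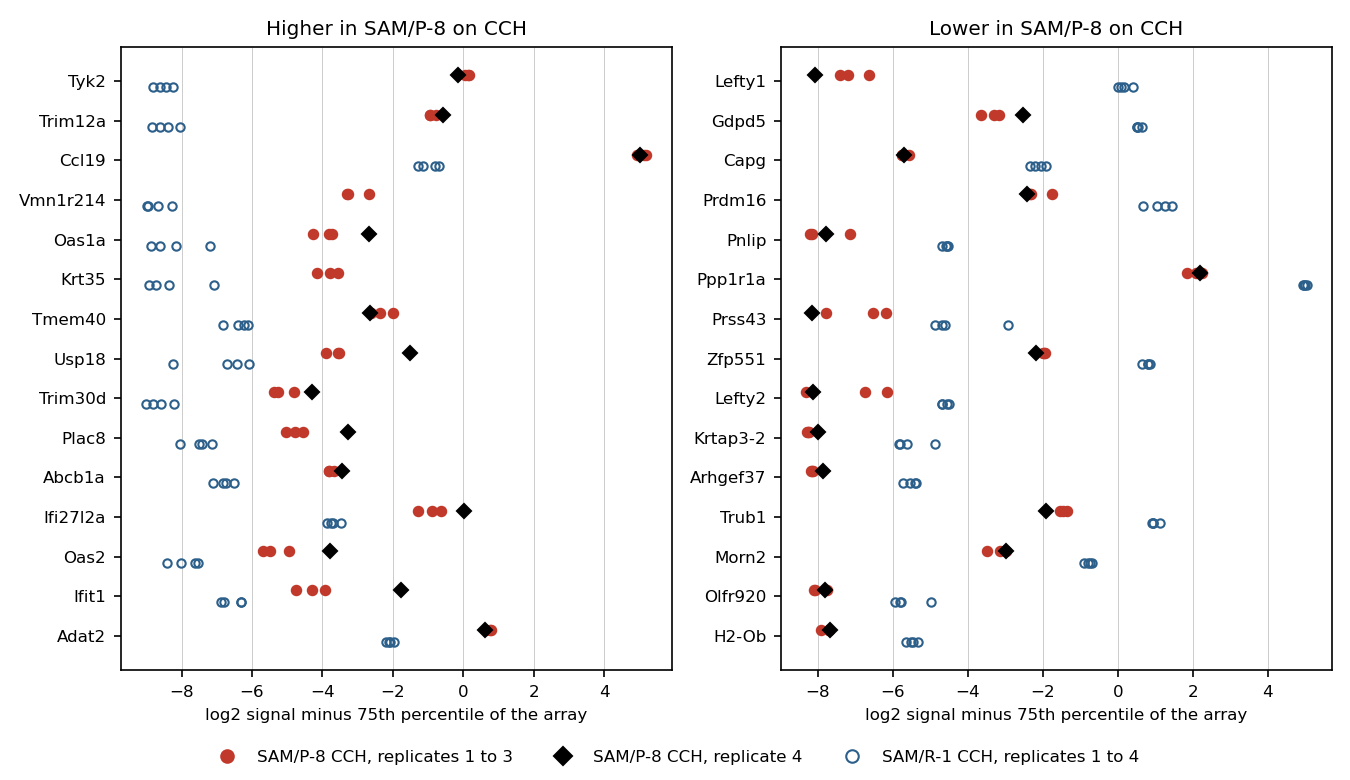
Levels of the 15 named genes with the largest increases and the 15 with the largest decreases on each CCH array, as log2 signal minus the 75th percentile of the array, with 1 point per array and the strains in different colours. Tyk2 in SAM/R-1 and Lefty1 in SAM/P-8 lie near the dim end while the other strain lies near 0, and the absence of overlap in the 30 genes was a condition of their choice.

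Outside the immune lists, large increases were found in genes of varied function. Adat2, a subunit of the adenosine deaminase that edits tRNA, stood at 0.66, 0.79, 0.77 and 0.63 in SAM/P-8 and at -2.11, -2.08, -2.20 and -1.98 in SAM/R-1. That is a 6.97-fold difference with little spread within either strain (2.80 ± 0.07, limma adjusted p = 9.26e-13). Abcb1a, the drug efflux pump P-glycoprotein of brain endothelium, was at least 7.02-fold higher (limma adjusted p = 3.72e-07). Tmem40, well above background on 2 of 4 SAM/R-1 arrays, was higher by 3.98 ± 0.33, and its other feature by 2.81. Plac8, which is expressed in leukocytes among other cells, was at least 4.31-fold higher, or 3.31-fold without replicate 4.

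A pheromone receptor gene and a hair keratin gene were also among the largest increases. Vmn1r214 was at least 10.9-fold higher and Krt35 at least 6.47-fold higher. Both rest on 3 SAM/P-8 arrays, since the spot of replicate 4 was marked non-uniform and left out. Vmn1r214 stood at -3.27, -3.30 and -2.66, and Krt35 at -4.14, -3.78 and -3.56, with the 4 SAM/R-1 arrays of each gene not above background.

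Lefty1 was the gene with the largest fitted decrease. It stood at -6.64, -7.21, -7.41 and -8.07 in SAM/P-8, not well above background on any array, and at 0.08, 0.01, 0.17 and 0.41 in SAM/R-1. The level in SAM/P-8 was at least 73.0-fold lower (-7.50 ± 0.27 as fitted, limma adjusted p = 4.71e-11). Lefty2, the other Lefty gene, stood at -8.32, -6.17, -6.76 and -8.13 against -4.50, -4.55, -4.68 and -4.69, and was at least 2.68-fold lower (limma adjusted p = 8.18e-05). The absence of overlap between the strains was a condition of the choice of both genes.

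Other genes of TGF-beta, Nodal and BMP signalling mostly did not pass the test. Of 30 measured, 2 were higher (6.67%) and 4 lower (13.3%), against 6.17% and 6.52% of all genes, with a median of -0.01. Prdm16, a zinc finger protein that represses TGF-beta signalling and is known in neural stem cells and brown fat, stood at -1.76, -2.31, -2.34 and -2.43 in SAM/P-8 and at 1.46, 1.03, 0.67 and 1.26 in SAM/R-1, a 9.97-fold difference (-3.32 ± 0.20, limma adjusted p = 2.23e-08). The receptor Bmpr1b was lower by -0.46 ± 0.06 (limma adjusted p = 5.4e-05). The ligands that were higher were Bmp7, by 1.18 ± 0.24 (limma adjusted p = 0.00402), and Bmp4, by 0.62 (adjusted p = 0.0223). The other feature of Bmp7 gave 0.75 and was not called. Leaving out SAM/P-8 replicate 1 or 4 or SAM/R-1 replicate 2 or 4 left 1 gene called higher, and without SAM/P-8 replicate 4 Bmp4 was not called.

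Ppp1r1a, an inhibitor of protein phosphatase 1 that is active when phosphorylated by protein kinase A, was lower on both of its features. It stood at 1.85, 2.25, 2.08 and 2.18 in SAM/P-8 and at 4.97, 5.05, 4.94 and 5.005 in SAM/R-1, a 7.46-fold difference (-2.90 ± 0.10, limma adjusted p = 1.89e-11), and its other feature gave -3.04. It was the only one called of 16 genes for protein phosphatase 1 and its regulators. Without SAM/P-8 replicate 1 another member was called higher, and without SAM/P-8 replicate 3 or SAM/R-1 replicate 1 a second member was called lower. Ppp1r1b, the related inhibitor DARPP-32 of striatal neurons, differed by 1.02 with all arrays and by 0.11 without replicate 4.

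Further decreases of this size involved signalling and cytoskeletal genes. Gdpd5, a glycerophosphodiester phosphodiesterase known in motor neuron differentiation, stood at -3.18, -3.65, -3.30 and -2.53 in SAM/P-8 and at 0.51, 0.64, 0.53 and 0.55 in SAM/R-1, which is 13.2-fold (limma adjusted p = 4.55e-09). Capg, an actin-capping protein of macrophages, was lower by -3.56 ± 0.15 as fitted (limma adjusted p = 2.22e-10), and in SAM/P-8 its signal was well above background on 1 array. The zinc finger gene Zfp551 was 6.98-fold lower and Morn2 was 5.16-fold lower. Arhgef37, a guanine nucleotide exchange factor by its name, was at least 1.42-fold lower. Trub1, a pseudouridine synthase, was lower by -2.55 ± 0.10 on its brightest feature, while its other feature gave 0.08 (adjusted p = 0.661), so its features disagree.

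With normexp correction 14 of the 30 genes with the largest differences were still called. The 16 that were not are Abcb1a, Arhgef37, H2-Ob, Ifit1, Krt35, Krtap3-2, Lefty2, Oas1a, Oas2, Olfr920, Plac8, Pnlip, Prss43, Trim30d, Usp18 and Vmn1r214. In each of the 16, at least 2 arrays of 1 strain were not well above background. Under that correction Tyk2 differed by 3.70, Lefty1 by -4.11, Oas1a by 0.87 (adjusted p = 0.315) and Usp18 had an adjusted p of 0.221.

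Genes of neurotransmission and excitability mostly did not pass the test. Of 29 glutamate receptor and postsynaptic scaffold genes 1 was called, Grin1, the obligatory subunit of NMDA receptors, at 0.27, and it was not called without SAM/P-8 replicate 3 or SAM/R-1 replicate 3. Without SAM/P-8 replicate 3 or 4 or SAM/R-1 replicate 1 another member was called lower. Of 21 genes for GABA synthesis, transport and receptors 0 were called by limma, and without SAM/P-8 replicate 4 there were 1 higher and 1 lower. Of 34 potassium channel genes 4 were higher (11.8%) and 2 lower (5.88%), against 6.17% and 6.52% of all genes. Kcnh5, a voltage-gated channel, was higher by 0.67 ± 0.12 (limma adjusted p = 0.00112), and Kcnn2, a calcium-activated channel that shapes the afterhyperpolarisation, was lower by -0.58 ± 0.10 (limma adjusted p = 0.000907), with -0.12 on its other feature. There were 3 higher without SAM/P-8 replicate 4. Without SAM/R-1 replicate 1 or 3 only 1 potassium channel gene was called higher, and 1 was called lower without SAM/P-8 replicate 1, 2 or 4 or SAM/R-1 replicate 2 or 3.

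Calcium handling was counted because the supplement is named as a calcium compound. Of 30 measured calcium pumps, exchangers, channels and sensors, 2 were higher and 3 lower. The plasma membrane pump Atp2b2 was higher by 0.41 ± 0.09 (limma adjusted p = 0.00955) and the potassium-dependent exchanger Slc24a2 was lower by -0.41 ± 0.08 (limma adjusted p = 0.00184). Camk2a, the calcium-dependent kinase of synaptic plasticity, was lower by -0.33, but by -0.16 (adjusted p = 0.21) after quantile normalization. There were 2 in each direction without SAM/P-8 replicate 4. Without SAM/R-1 replicate 3 or 4 there was 1 called in each direction, and without SAM/P-8 replicate 1 there was 1 called lower. Of 17 neurotrophin and insulin-like growth factor genes 1 was called, Irs1 at -0.29, and it kept its call only when SAM/P-8 replicate 1 or SAM/R-1 replicate 1 was the array left out. Of 20 genes around the amyloid precursor, secretases and tau 3 were higher, including the tau kinase Gsk3b by 0.44 ± 0.09 (limma adjusted p = 0.00471) and App itself by 0.24, and 0 were lower, or 1 without SAM/P-8 replicate 3.

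Stress defence and metabolism gave small differences with a few exceptions. Of 41 antioxidant and glutathione genes 2 were higher and 1 was lower. The glutathione transferases went in opposite directions, Gstm2 higher by 1.47 ± 0.34 (limma adjusted p = 0.0108) and Gstm1 lower by -0.53 ± 0.04 (limma adjusted p = 4.08e-07), and Gclm, the modifier subunit of the enzyme that limits glutathione synthesis, was higher by 0.65. The Gstm genes are alike in sequence. Without SAM/P-8 replicate 1 or 4 a second gene of this list was called lower. Of 28 heat shock and endoplasmic reticulum chaperone genes 3 were higher, or 2 without SAM/P-8 replicate 4, among them Hsp90ab1 by 0.36 ± 0.06 (limma adjusted p = 0.0011). Of 29 genes of cholesterol and fatty acid synthesis 3 were higher (10.3%) and 2 lower (6.9%), against 6.17% and 6.52% of all genes. Hsd17b7 was higher by 0.68, and Dhcr7, which makes cholesterol in the last step of its pathway, was lower by -0.60. Without SAM/P-8 replicate 4 the counts were 4 higher and 2 lower. They were 1 higher without SAM/P-8 replicate 1 or 2 or SAM/R-1 replicate 2, 3 or 4, and 1 lower without any array other than SAM/P-8 replicate 4 or SAM/R-1 replicate 2.

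Some genes of mitochondrial respiration and of ribosomes were slightly lower in SAM/P-8. Of 54 respiratory chain and ATP synthase genes 12 were called lower and 0 higher, against 6.52% of all genes called lower, with a median of -0.09. Cox6c, a subunit of cytochrome c oxidase, was lower by -0.57 ± 0.06 (limma adjusted p = 5.85e-06). Cytoplasmic ribosomal protein genes numbered 50, with 7 lower and 0 higher and also with a median of -0.09, led by Rpl30 at -0.37 and Rps15 at -0.33. These counts moved with the scaling. With normexp correction 2 respiratory genes and 0 ribosomal genes were called lower. After quantile normalization 4 respiratory genes were lower, and for the ribosomal genes 3 were lower and 1 higher with a median of 0.00. The counts were 10 and 5 without SAM/P-8 replicate 4. Leaving out SAM/P-8 replicate 2 or SAM/R-1 replicate 3 gave 7 respiratory genes, and leaving out SAM/P-8 replicate 1 or 3 or SAM/R-1 replicate 2 or 3 gave 4 ribosomal genes. On the control diet 5 respiratory genes were lower, and the ribosomal genes had 1 in each direction and a median of 0.01. Of 21 clock genes 2 were lower, Ciart by -0.41 and Nr1d1 by -0.31, or 3 without SAM/P-8 replicate 4 and 1 without SAM/R-1 replicate 2, where Ciart was not called. Of 24 immediate early genes Sik1 was lower by -0.74 ± 0.17 (limma adjusted p = 0.0109), and without SAM/P-8 replicate 2 another was called higher.

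Marker lists of cell types were counted in the same way. Of 22 striatal markers 0 were called by limma, with a median of 0.85 that became -0.05 without replicate 4, where 1 was called higher. Of 6 dopamine neuron markers 0 were called, with a median of 0.33, or 0.18 without replicate 4. Of 13 dentate granule cell markers and 11 CA2 and CA3 markers 0 were called, except for 1 dentate marker called lower without SAM/P-8 replicate 2. Of 10 CA1 markers 1 was called in each direction, Man1a at 0.32 and Lmo4 at -0.29. Neither call was stable, since Man1a was called only without SAM/R-1 replicate 1, and Lmo4 only without SAM/P-8 replicate 2 or 3, of the 8 fits that left out 1 array. For 15 cortical and subicular markers, Bcl11b at 0.37 was called, and it was not called without SAM/P-8 replicate 2 or 4 or any 1 of the 4 SAM/R-1 arrays. Markers of 15 interneuron genes and 11 thalamic genes gave 0 calls each.

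Vascular markers included several of the called genes. Of 24 endothelial and pericyte genes 8 were higher (33.3%, against 6.17% of all genes) and 0 lower, with a median of 0.32. Without replicate 4, 6 were higher with a median of 0.24. The score was 0.25, 0.15, 0.26 and 0.46 in SAM/P-8 replicates 1 to 4 and between -0.22 and -0.06 in SAM/R-1, so the strains did not overlap, and 17 of the 24 genes were at their highest on replicate 4. Abcb1a led, and Ly6a, a surface antigen of endothelium that interferon also induces, was higher by 1.40 ± 0.18 (limma adjusted p = 8.18e-05). Vwf, the clotting factor carrier of endothelium, was higher by 1.07 ± 0.27 (limma adjusted p = 0.0172) and the pericyte receptor Pdgfrb by 0.70 ± 0.10 (limma adjusted p = 0.000267). Pecam1 was higher by 0.57 with all arrays and was not called without replicate 4. On the control diet 16 of the 24 were higher and 0 lower. With normexp correction 3 were higher.

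Microglial markers were higher for 8 of 20 genes (40.0%, against 6.17% of all genes) and lower for 0, although their median was 0.05. Gpr34, a receptor of microglia, was higher by 0.46 but was not called without SAM/P-8 replicate 4, Itgam, the integrin CD11b, by 0.43, and Aif1, which encodes Iba1, by 0.33. The homeostatic markers P2ry12 and Tmem119 and the receptor Trem2 did not pass the test. The count was 5 without SAM/P-8 replicate 2 or 4 or SAM/R-1 replicate 2 or 4, 3 after subtracting the array median and 2 with normexp correction, where Itgam turned to -0.01. Gfap, the intermediate filament of astrocytes, was higher by 0.49 ± 0.09 (limma adjusted p = 0.00283) and was the one gene called of 16 astrocyte markers, though a second was higher without SAM/R-1 replicate 3 and 1 was lower without SAM/R-1 replicate 1. Of 17 oligodendrocyte lineage genes the transcription factors Olig1 and Olig2 were higher by 0.55 and 0.42. Olig2 was not called without SAM/P-8 replicate 1 or 4 or any 1 SAM/R-1 array, and 2 members were lower without SAM/P-8 replicate 4, on which 14 of the 17 were at their highest.

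Markers of tissue at the edge of the dissection were also counted. Of 20 genes of meninges and fibroblasts 2 were higher, with a median of 0.61, and this count ran from 0 without SAM/P-8 replicate 1 to 5 without SAM/P-8 replicate 2, and was 1 without any other array. Of 14 choroid plexus genes 0 were called by limma, with SAM/P-8 scores between -1.87 and 1.23 and SAM/R-1 scores between -1.57 and 1.18, so the strains overlapped. Of 6 red blood cell genes Fech, the last enzyme of heme synthesis, was lower by -0.72 on its brightest feature and differed by 0.26 on the other, and without SAM/P-8 replicate 2 a second gene was called lower. Of 8 pituitary and hypothalamic hormones Pomc was lower by -0.44 ± 0.05 (limma adjusted p = 5.01e-05). For peripheral leukocytes 5 of 20 genes were measured, and 2 were higher, Plac8 and the lysozyme gene Lyz2, the latter by 1.79 ± 0.24 (limma adjusted p = 0.000132). The part of these cells in the interferon and MHC values was not tested.

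The strain difference on the control diet was set beside that on the CCH diet. On the control diet 827 genes were called higher in SAM/P-8 (6.17%) and 860 lower (6.42%). Called on both diets were 1017 genes, of which 1014 had the same direction. Across 13394 genes the differences on the 2 diets had a Pearson r of 0.801, which is across genes that are not independent replicates. No arrays are shared between these 2 comparisons. Of the interferon genes, 22 were higher on the control diet, with a median of 1.06, against 21 and 0.96 on CCH. Ccl19, measured in both strains, differed by 6.07 on control and 6.05 on CCH. Where 1 strain was not well above background only bounds can be set side by side. Tyk2 was at least 65.0-fold higher on control and at least 94.8-fold higher on CCH, and Lefty1 was at least 62.7-fold and at least 73.0-fold lower. Of the 219 genes at least 2-fold different on CCH, 188 were called in the same direction on control.

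**Figure D4:**
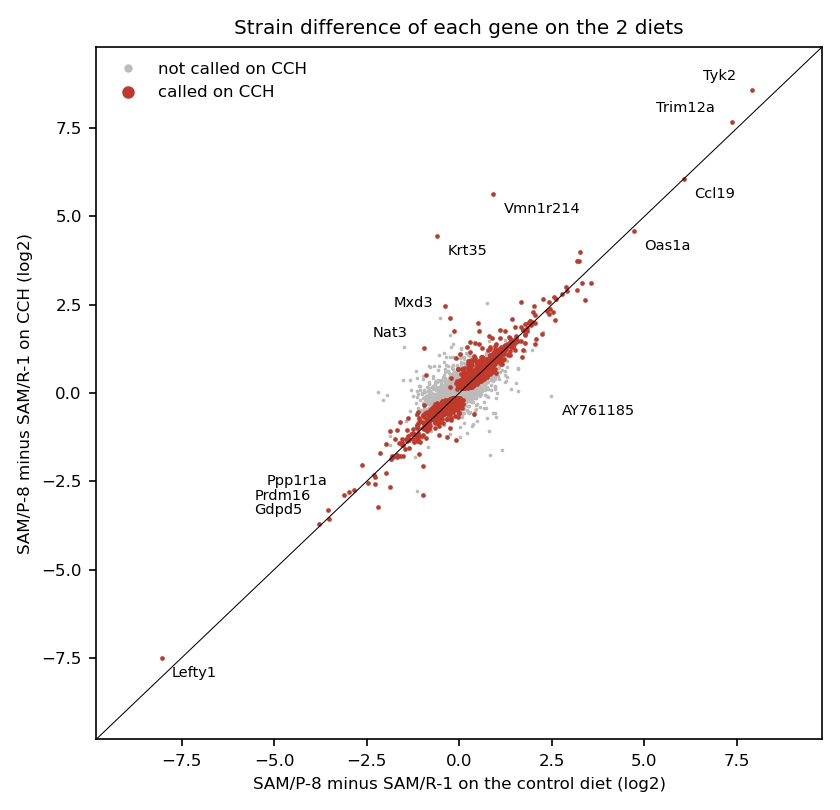
Strain difference on the CCH diet (vertical axis) against that on the control diet (horizontal axis), both as SAM/P-8 minus SAM/R-1 in log2 units, with 1 point per gene for 13394 genes, coloured where called on CCH, and a line of equality. Tyk2, Trim12a, Ccl19 and Lefty1 lie near the line, and Mxd3, Krt35 and Vmn1r214 lie off it with a higher value on CCH.

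The interaction test asks whether the strain difference itself differed between the diets. It called 15 genes, which is 0.112% of those tested, and 627 had an unadjusted p below 0.05. Each group lay on its own slide, so diet and slide cannot be told apart in this test. Of the 684 genes called on CCH and not on control, 2 had a called interaction, Mxd3 and Krt35. Mxd3, a repressor of the Myc network, stood at -2.54, -2.81, -2.76 and -2.75 in SAM/P-8 on CCH and at -4.91, -4.67, -4.92 and -4.87 in SAM/R-1 on CCH. Its strain difference was 2.13 ± 0.14 on CCH and -0.25 on control (interaction 2.38 ± 0.19, limma adjusted p = 3.3e-05). The other feature of Mxd3 gave 0.05 on CCH, so its features disagree. Krt35, a hair keratin, gave an interaction of 5.03 (limma adjusted p = 0.0261) with 0 of 4 SAM/R-1 CCH arrays well above background. Vmn1r214 differed by 0.92 on control, and its interaction of 4.72 was not called (adjusted p = 0.086).

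In most other interaction genes the strains differed on the control diet. Foxe3, a forkhead transcription factor, gave 0.51 on CCH and -0.90 on control (interaction 1.41 ± 0.13, limma adjusted p = 8.8e-05). F9, coagulation factor IX, gave 0.43 and -1.14, Spem2 0.05 and -1.13, and Tert, the telomerase catalytic subunit, 0.04 and -0.95. AY761185 went the other way, with -0.10 on CCH and 2.48 on control (interaction -2.58 ± 0.34, limma adjusted p = 0.0041), as did Stc1, stanniocalcin, with -0.04 and 0.68. Stc1 lost its call without SAM/P-8 CCH replicate 2 or 3. The 3 genes called in opposite directions on the 2 diets were Foxe3, Mob3a and Nat3. Nat3 gave 1.29 on CCH and -0.95 on control, and Mob3a 0.17 and -0.25. With normexp correction the CCH differences were -0.19 for Foxe3, -0.03 for Mob3a and -0.11 for Nat3, so all 3 turned sign.

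Genes called different also lay side by side. In the RefSeq order of genes, 18 runs of at least 4 measured neighbours were called without a gap, holding 89 genes, and the longest held 9. How often neighbours would be called together by position alone was not tested. Several runs hold the leading genes. Oas2, Oas1e, Oas1c, Oas1f and Oas1a form one, with 2.92, 0.44, 0.47, 2.67 and 4.59, though Oas1e was not called after quantile normalization, with the array median subtracted or without replicate 4. The values of Oas2, Oas1a and, in the runs below, Lefty1, Lefty2 and Aurkc are fitted against signals not well above background. Il11ra1, Ccl27a, Ccl19 and Ccl21a form another, with 0.57, 1.03, 6.05 and 1.06. The other feature of Il11ra1 gave -0.50 and was called lower (limma adjusted p = 0.02), so its features disagree. Lefty2 and Lefty1, at -2.74 and -7.50, lie in another run. Neighbours in a run could differ in the same or in opposite directions.

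The major histocompatibility region held a run of 9 genes. From Lta, a cytokine of lymphocytes, at -0.42 through Nfkbil1, Atp6v1g2 at -0.50 and Ddx39b at -0.31 the genes were lower, though Lta and Nfkbil1 were not called without replicate 4. From H2-D1 at 0.65 through H2-Q2 at 0.55, H2-Q7 at 0.51 and H2-Q10 at 0.57 to Tcf19 at 0.67 they were higher. The other features of Ddx39b, H2-D1 and H2-Q10 gave -0.005, -0.01 and 0.05 and were not called. Those of Atp6v1g2 and H2-Q2 gave -0.37 and 1.19 and were called. A second run of 9 held zinc finger genes, from Aurkc at -1.26 through Zfp954, Zfp418, Zfp772, Vmn2r29, Clcn4 and Zik1 to Zfp551 at -2.80 and Zfp606 at 2.38, where the other feature of Zfp606 gave -0.39. Rgs5, Rgs4, Hsd17b7 and Ddr2, a collagen receptor, were all higher, by 0.69, 0.84, 0.68 and 2.58. Close to these genes in another run, Fcgr2b and Fcgr3, receptors for immunoglobulin G, were lower by -0.88 and -0.33 beside Atf6 and Dusp12, and the other feature of Fcgr3 gave 0.03.

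**Figure D5:**
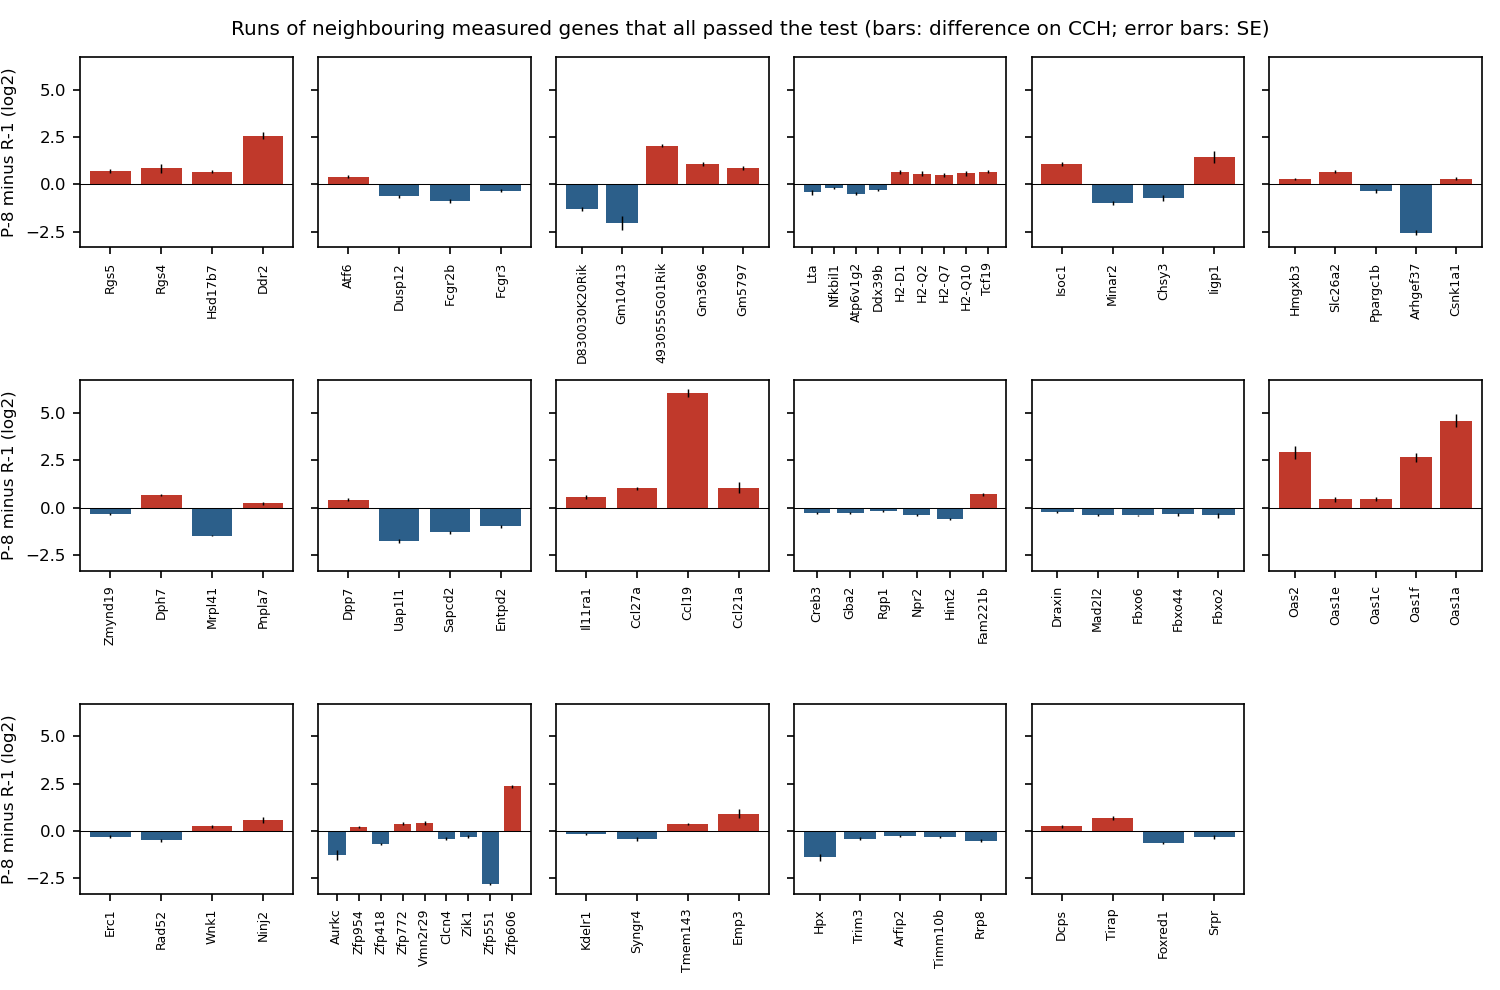
Strain difference on the CCH diet of each gene in 17 of the 18 runs of called neighbours, all but the run with Lefty1, 1 panel per run, as bars in log2 units (SAM/P-8 minus SAM/R-1) with SE, genes in RefSeq order and not to scale of distance. The bar of Ccl19 reaches 6.05 and that of Oas1a 4.59, and several panels hold bars in both directions.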

How the data were processed

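Hippocampal total RNA was measured on 16 one-colour arrays, 4 per group, and the 8 arrays of the CCH groups form the main comparison. Per the file headers, Agilent Feature Extraction 9.5.3.1 made the deposited processed signal, an intensity after background subtraction, together with flags, values of the kind other, that mark spots well above background or non-uniform. The authors' deposited value table is on a log2 scale, centred per probe, and served as an alternative.

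Control spots and 187 non-uniform spots were left out. The log2 processed signal minus the array's 75th percentile was averaged per probe sequence. Of 41174 features, 28840 passed the filter, which asked for a signal well above background on every array of either CCH group. RefSeq accessions gave 24844 features a symbol and 16330 none. A gene was represented by its brightest feature. limma 3.58.1 in R 4.3.3 fitted group means over all 16 arrays (12 residual degrees of freedom, a prior of 2.35) with Benjamini-Hochberg adjustment at 0.05. The fit was tested on simulated data. Alternatives were other scalings, normexp background with an offset of 50, other filters, array weights, the 8 arrays alone, a replicate block and leaving out each CCH array.

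Named were, among genes called whose strains did not overlap, the 15 largest increases and 15 largest decreases, up to 4 called members of each of 38 lists, 5 interaction genes in each direction, genes that stood apart on SAM/P-8 replicate 4, and runs of at least 4 called neighbours. Other list members were named after their values were seen. The comparison, lists and rules were chosen with earlier results of these data known. Promoter sequences are from RefSeq (GRCm38.p6), and no genome was used. Some genes that the rules name are not reported here.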

Additional observations from a re-analysis of the deposited data

Results flagged for a closer look

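Within groups of 4 arrays, a single array was set against the others by Dixon's test, where chance alone marks about 1 group in 20. The test marked 5 of 58 groups of gene values and 6 of 76 groups of list scores, so some of those below may be marked by chance. SAM/P-8 CCH replicate 4 lay apart from the other SAM/P-8 CCH arrays in the scores for striatal neurons (3.43), dopamine neurons (1.49), the interferon response (1.52) and CA1 pyramidal cells (-0.39). Replicate 3 of the same group lay apart in the scores for potassium channels (0.12) and choroid plexus (-1.87). Among single genes, SAM/P-8 CCH replicate 4 lay apart for Usp18 at -1.52 and Krtap3-2 at -7.997, and replicate 3 for H2-Ob at -7.93. SAM/R-1 CCH replicate 4 lay apart for Olfr920 at -4.97 and replicate 1 for Prss43 at -2.93. The values of Krtap3-2 and H2-Ob are not well above background.

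The interaction test of limma called Mxd3 (2.38), F9 (1.57), Foxe3 (1.41), Spem2 (1.18) and Tert (0.98). Each had a higher SAM/P-8 minus SAM/R-1 difference on CCH than on control. The interaction went the other way for AY761185 (-2.58) and Stc1 (-0.73). Each group lay on its own slide, so diet and slide cannot be told apart in these values.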

How the results depend on the processing

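The strain difference called 3900 features, and 923 (428 higher and 495 lower) with normexp background. That setting starts from the median signal and background of each spot, and its offset shrinks differences between dim features. Some named genes lost their call with a smaller difference and others, such as App, without one. Why the count fell was not tested. Other settings gave 2874 with the 8 CCH arrays alone, 3535 with features well above background on all 8, 3559 with the array median, 3903 with features kept through any of the 4 groups, 3920 with quantile normalization, 3976 with the authors' deposited table, 4305 with no filter and 4908 with array weights. With 1 array left out the count ran from 2820 to 3497. The strain by diet interaction called 39 features, 0 with normexp, 25 with features well above background on all 8 and 28 to 44 with 1 array left out. With the replicate number as a block the counts were 3668 and 30. Same-numbered CCH arrays deviated together with correlations of 0.1457, -0.06935, 0.3071 and 0.08899 for replicates 1 to 4. The highest of the 12 differently numbered pairs was 0.2057, which replicate 3 exceeded. On all 16 arrays the replicate number equals the position on the slide. The labels tie same-numbered arrays to no shared source, and these correlations do not settle whether the numbers pair the samples. Of 200 named results, 82 kept direction and side of the threshold in every alternative run and 142 in every one other than normexp.

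Under normexp the sign turned for Fam221b (-0.21), Foxe3 (-0.19), H2-Oa (-0.067), Itgam (-0.014), Mob3a (-0.032), Nat3 (-0.11), Oas1e (-0.15) and Vmn2r29 (-0.044). On another feature of the same gene it turned for Atf6 (-0.22), Creb3 (0.31), Fcgr3 (0.0345), Fech (0.26), H2-D1 (-0.014), Ide (-0.12), Il11ra1 (-0.50), Isoc1 (-1.35), Pias1 (0.13), Rgp1 (0.85), Ryr2 (0.13), Srpr (0.19 and 0.38), Trub1 (0.079), Zfp606 (-0.39) and Zik1 (0.22). The cause was not tested. The number of arrays and signals near background limit these values, and features on which a strain was not above background have only a bound.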
